A study of Mus musculus with 12 samples.

Results

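The comparison is of lesion severity at 1 time: cells taken 2 weeks after full transection (FT, 3 libraries) against cells taken 2 weeks after lateral hemisection (HS, 2 libraries) of the mouse spinal cord, over all 16388 genes that could be tested. The 5 libraries were chosen by their labels among the 12 of the series, which also holds 3 libraries of non-injured mice (NI), 3 of HS at 1 week and 1 of FT at 1 week. All mice were adult males (12 weeks old when injured) of the Aldh1l1-EGFP line on a Swiss Webster background, in which the Aldh1l1 promoter drives enhanced green fluorescent protein (eGFP) in astrocytes, and the lesion was made at thoracic level 9. Living eGFP-positive cells were sorted from a segment of cord around the lesion (an equivalent segment in NI), and polyA RNA was sequenced after amplification from low input. More mice than libraries were used in each group, so libraries hold pooled mice, and the labels do not say which, so p-values measure the spread between these pools, which may be technical.

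Astrocytes support neurons through glutamate and potassium uptake, and after spinal cord injury (SCI) they become reactive: they raise intermediate filaments such as GFAP, secrete matrix and chemokines, and form part of the glial scar around the lesion. The scar also holds microglia, macrophages that entered from the blood, pericytes and fibroblasts. A lateral hemisection leaves one side of the cord intact, whereas a transection cuts all of it, and the comparison asks whether the sorted cells of both lesions differ at 2 weeks.

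Values are normalized counts, in which 1 read was worth between 0.0712 and 0.117 units in the 5 libraries, and are given in the order of replicates 1 to 3 for FT and 1 to 2 for HS. The 5 libraries held 9070270 to 14942057 reads. Differences are on the scale of log2(normalized count + 1), FT minus HS, with their standard error (SE), and come from 1 limma model over all 12 libraries, so a positive value means a higher level after FT. A gene was called differentially expressed (DE) when its adjusted p (Benjamini-Hochberg) was under 0.05 and its difference at least 2-fold.

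All 20 tested astrocyte markers were present at 1 normalized count or more in each of the 5 libraries, but markers of other cell types were present too, including all 12 of mature oligodendrocytes and all 12 of homeostatic microglia. All 12 endothelial and all 10 ependymal markers reached this level too, so it does not set a cell type apart. The oligodendrocyte markers summed to 56162 to 101325 in the 5 libraries, more than the astrocyte sum in each. Sums of different genes do not measure cell numbers. The 2 HS libraries were unlike each other. The summed level of the astrocyte markers was 3225 and 8387 in HS replicates 1 and 2, against 8145, 9072 and 10515 in the FT libraries and 8129, 8725 and 2911 in NI. The summed level of the homeostatic microglia markers was 6649.6 and 1122 in HS, against 1302, 1188 and 1393 in FT and 767, 4565 and 6187 in NI. HS replicate 1 thus held the lowest astrocyte sum and the highest microglia sum of the 5 libraries, whereas HS replicate 2 lay within the FT range for the first and just below it for the second. In sorted bulk samples, fewer cells of a type and less RNA per cell cannot be told apart. Leaving out HS replicate 1 moved many of the values below, and the medians of gene lists are therefore given with and without it.

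No gene was called DE between FT and HS at 2 weeks (0 of 16388, 0% of the genes tested), and the smallest adjusted p in the limma fit was 0.961. The same count of 0 came from edgeR's quasi-likelihood and likelihood ratio tests and from DESeq2 on the recovered reads of all 12 libraries. An unadjusted p under 0.05 was found for 370 genes (2.26% of those tested). This is a smaller share than the 0.05 which that cut-off gives where no gene differs. Of the 370, 228 were higher in FT (1.39%) and 142 lower (0.866%). The direction of this split depended on the setting. With libraries scaled to equal totals it was 271 higher and 82 lower, but it was 195 and 214 with edgeR's quasi-likelihood test, 197 and 309 with its likelihood ratio test and 216 and 304 with DESeq2. The count was 85 without HS replicate 1 (38 higher and 47 lower), 161 without FT replicate 2 and 1059 without HS replicate 2 (534 and 525). With an edgeR likelihood ratio test on the 5 libraries alone, a setting chosen after the data were seen, 3 genes passed, all lower in FT: F13a1 (adjusted p = 0.000668), Saa3 (0.0209) and Sst (0.0209). The 3 FT values did not overlap the 2 HS values for 3451 genes (21.1%), 1802 of them higher in FT (11%) and 1649 lower (10.1%). Of the 10 splits of these libraries into 3 and 2, 1 gives each direction, so shares near these arise where the groups do not differ.

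The precision of the comparison differed between genes. The 95% confidence interval of the difference lay entirely within 2-fold in either direction for 9658 genes (58.9%), and for 6021 of the 9220 genes (65.3%) whose 5 libraries averaged 10 or more. The median interval reached 0.68 to each side on the log2 scale. For the genes with an interval within 2-fold, a difference larger than 2-fold on this scale was outside the interval, and for the others it was not. The scale understates the fold change of low genes, so a larger change in their level is not excluded. A fitted difference of at least 2-fold was found for 730 genes (4.45%), none of which passed the test.

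**Figure D1:**
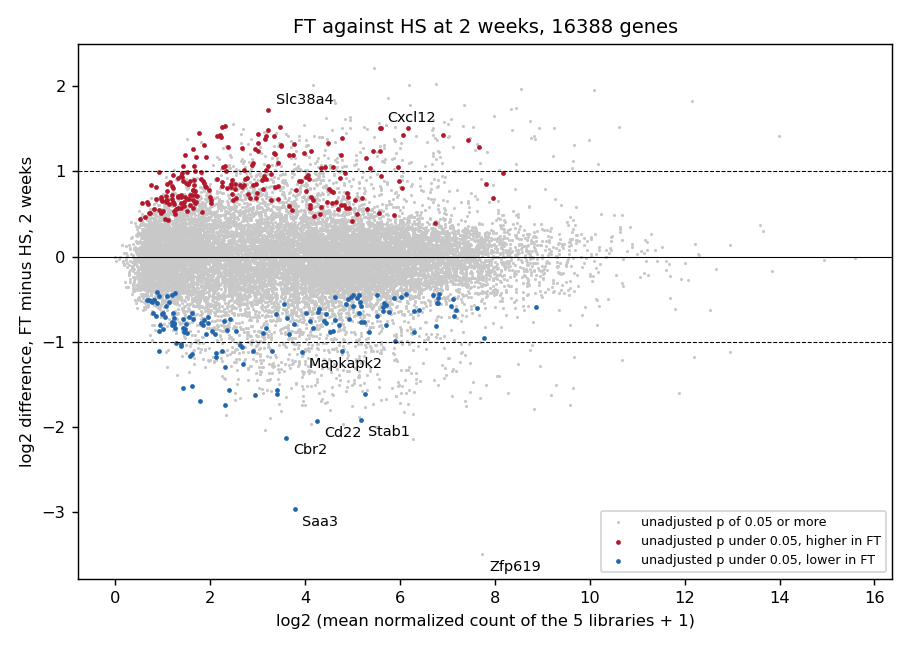
Each point is 1 of the 16388 tested genes, placed by the log2 of its mean normalized count plus 1 over the 5 libraries (x axis) and by its log2 difference, FT minus HS (y axis). Dashed lines mark 2-fold, and the 228 red and 142 blue genes have an unadjusted p under 0.05. Most genes lie between the dashed lines, and the most negative point is Zfp619 at -3.50, with Saa3 at -2.97 the most negative of the blue ones.

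Pairs of libraries showed where the spread lay. Among the same 9220 genes, 1018 (11.04%) were at least 2-fold apart between HS replicates 1 and 2. HS replicate 1 was at least 2-fold from the FT libraries in 1021, 1316 and 1430 genes. HS replicate 2, in contrast, was that far from the FT libraries in 108, 272 and 99 genes, and pairs within FT differed in 169, 454 and 330 genes. By this count the closest pair of the 10 was HS replicate 2 with FT replicate 3, followed by HS replicate 2 with FT replicate 1. By the median absolute log2 difference the order of these pairs was the other way round (0.233 and 0.227), and the pair of HS libraries, at 0.268, was closer than FT replicate 3 was to FT replicates 1 and 2 (0.337 and 0.336). HS replicate 2 lay within the range of the 3 FT libraries for 5649 of these genes (61.3%) and HS replicate 1 for 3829 (41.5%).

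**Figure D2:**
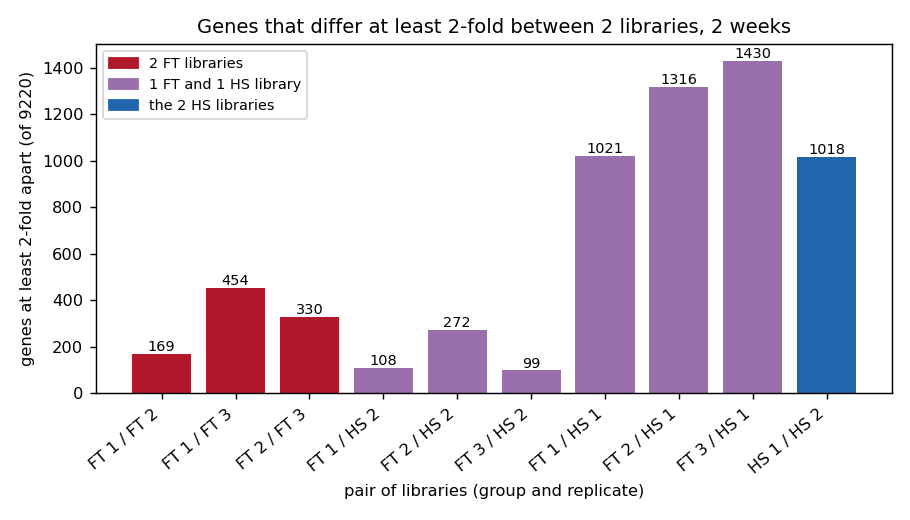
Bars give the number of genes, of 9220 that average 10 or more, that differ at least 2-fold between 2 libraries, for each of the 10 pairs on the x axis (group and replicate). The 4 pairs with HS replicate 1 reach 1018 to 1430 genes, and the 6 pairs without it reach 99 to 454.

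The gap between the HS libraries ran in opposite directions in the microglial and astrocyte lists, with a median log2 gap, replicate 1 minus replicate 2, of 2.71 and -2.45. Over the 9220 genes, HS replicate 1 was at least 2-fold above replicate 2 in 584 genes and at least 2-fold below it in 434. Tmem119, a microglial membrane protein, was at 182 and 18.5 in HS and 22.1, 13.4 and 18.7 in FT, and Ccl3, a chemokine, was at 232 and 24.2 in HS and 36.8, 29.01 and 48.9 in FT. In the other direction, Aqp4, the water channel of astrocyte endfeet, was at 57.9 and 498 in HS and 440.0, 481 and 658 in FT, and Slc1a2, the main astrocyte glutamate transporter, at 68.3 and 571 in HS and 416, 521 and 843 in FT. For these 4 genes HS replicate 2 was at or near the FT levels and HS replicate 1 was far from them. The largest gap of all, picked out after the values were seen, was in Zfp619, a zinc finger gene, at 1020.3 and 5.57 in HS and 4.24, 17.2 and 2.97 in FT.

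Genes that were higher in all 3 FT libraries than in both HS libraries, with an unadjusted p under 0.05 and a mean of at least 10 in a group, numbered 85, and 70 were lower. The 12 with the largest positive differences lay between 1.38 and 1.73, and none passed after adjustment (adjusted p = 0.961 for each, limma). They included several secreted proteins. Cxcl12, a chemokine that attracts progenitors and leukocytes, was at 51.6, 82.4 and 55.1 in FT, 14.4 and 30.2 in HS and 44.1, 11.5 and 8.71 in NI, a difference of 1.51 ± 0.58 (95% interval 0.24 to 2.78). All 3 FT libraries were above every HS and NI library for this gene. Rarres2, which encodes the chemoattractant chemerin, was at 43.2, 84.1 and 66.05 in FT and 14.9 and 30.1 in HS (difference 1.51 ± 0.45), with 91.5, 37.3 and 33.9 in NI. Its FT values fell inside the NI range and the HS values below it. Rarres2 shares exon positions with Lrrc61, and without a statement on strand in the counting the reads of the pair cannot be told apart.

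Serpinf1, which encodes the anti-angiogenic factor PEDF, was at 79.8, 132 and 75.3 in FT and 21.6 and 47.3 in HS (difference 1.51 ± 0.65). Lbp, the lipopolysaccharide-binding protein that hands bacterial lipid to CD14, was at 8.33, 15.4 and 9.86 in FT, 3.49 and 3.37 in HS and 10.7, 9.57 and 5.76 in NI (difference 1.42 ± 0.33, 95% interval 0.69 to 2.15). The 2 HS values of Lbp were almost equal and lay below all 6 FT and NI values, so its difference was 1.44 without HS replicate 1 and 1.40 without replicate 2. Among surface and metabolic genes, Sdc2, a heparan sulfate proteoglycan, was at 135, 199.6 and 129.7 in FT and 32.4 and 94.6 in HS (difference 1.43 ± 0.56). Nt5e, the ectoenzyme CD73 that makes adenosine, was at 27.6, 49.8 and 28.2 in FT and 7.83 and 18.9 in HS (difference 1.40 ± 0.57). For both, HS replicate 2 stood much nearer to FT than replicate 1 did.

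Mgst1, a microsomal glutathione transferase, was at 62.7, 88.8 and 107 in FT and 16.7 and 55.4 in HS, and Slc38a4, an amino acid transporter, at 11.8, 16.9 and 7.19 and 1.57 and 4.395. The other 4 of the 12 were Bdh2, a hydroxybutyrate dehydrogenase, the positional gene Hoxc10, Alas2, the heme synthesis enzyme of red cell precursors, and Papss2, which makes the sulfate donor for proteoglycans, with differences of 1.53, 1.49, 1.41 and 1.38. In 11 of the 12 genes HS replicate 1 was further from FT than replicate 2, and without HS replicate 1 the 12 differences lay between 0.57 and 1.44. An unadjusted p under 0.05 remained in 11 of the 12 without HS replicate 2, and in 1, Lbp, without HS replicate 1.

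Of the 12 largest negative differences, -2.97 to -1.11, none passed after adjustment (adjusted p = 0.961 for each, limma). Saa3, an acute phase protein made by macrophages and astroglia, was at 1.17, 1.75 and 6.15 in FT, 19.9 and 34.9 in HS and 5.66, 3 and 0.648 in NI (difference -2.97 ± 1.00, 95% interval -5.17 to -0.77). Both HS libraries were above all FT and NI libraries. Cbr2, a carbonyl reductase known from tissue-resident macrophages, was at 3.65, 1.75 and 8.38 in FT, 18.4 and 22.9 in HS and 12.5, 11.4 and 3.38 in NI (difference -2.13 ± 0.74, 95% interval -3.75 to -0.50). Stab1, a scavenger receptor, was at 20.2, 7.57 and 22.02 in FT, 80.8 and 44.5 in HS and 47.5, 54.3 and 47.5 in NI (difference -1.92 ± 0.79). For Stab1 the FT libraries were the low ones, under every HS and NI value, and its exons overlap those of Nt5dc2.

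Clec10a, a galactose-type lectin of macrophages and dendritic cells, was at 1.83, 1.51 and 7.56 in FT, 9.89 and 12.5 in HS and 14.3, 9.702 and 12.1 in NI (difference -1.63 ± 0.68). Wfdc17, a small secreted protein of activated macrophages, was at 2.92, 3.15 and 9.64, 17.4 and 14.9 and 9.901, 11.6 and 11.2 (difference -1.62 ± 0.59). In both genes FT replicate 3 was the highest FT library and still lay below both HS libraries. Outside the 12, the same order held in F13a1, the coagulation factor XIII A chain of monocytes and macrophages, at 5.92, 6.52 and 8.52 in FT, 23.6 and 37.8 in HS and 23.2, 49.3 and 36.7 in NI (difference -1.96 ± 0.92, 95% interval -4.01 to 0.08). Mrc1, the mannose receptor CD206, also outside the 12, was at 6.72, 7.22 and 20.98 in FT, 35.6 and 40.4 in HS and 49.7, 25.5 and 31.8 in NI (difference -1.80 ± 0.87).

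These 7 genes were lower in every FT than in either HS library, so leaving out HS replicate 1 could not turn their sign. For those among the 12 this order was part of the rule that named them. Without HS replicate 1 the differences were -3.36 for Saa3, -2.28 for Cbr2, -1.50 for Stab1, -1.78 for Clec10a, -1.51 for Wfdc17, -2.29 for F13a1 and -1.89 for Mrc1. Cd22, a sialic acid-binding receptor of B cells and microglia, depended on that library, at 8.25, 4.89 and 4.596 in FT and 63.97 and 9.08 in HS, with a difference of -1.93 that was -0.58 without HS replicate 1. The remaining genes of the 12 were Hal, a histidine-degrading enzyme (6.94, 2.68 and 5.78 in FT, 17.6 and 15.02 in HS), Mapkapk2, a kinase downstream of p38 (10.9, 7.34 and 9.49 and 27.3 and 16.1), Sdf2l1, Eif4ebp1, Atp13a2 and Cfp, the complement regulator properdin (4.09, 4.31 and 9.04 and 9.82 and 17). The differences of Sdf2l1, Eif4ebp1 and Atp13a2 were -1.61, -1.11 and -1.11, and -0.86, -0.52 and -0.39 without HS replicate 1. An unadjusted p under 0.05 was kept by 3 of the 12 without HS replicate 1 and by 6 without replicate 2.

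**Figure D3:**
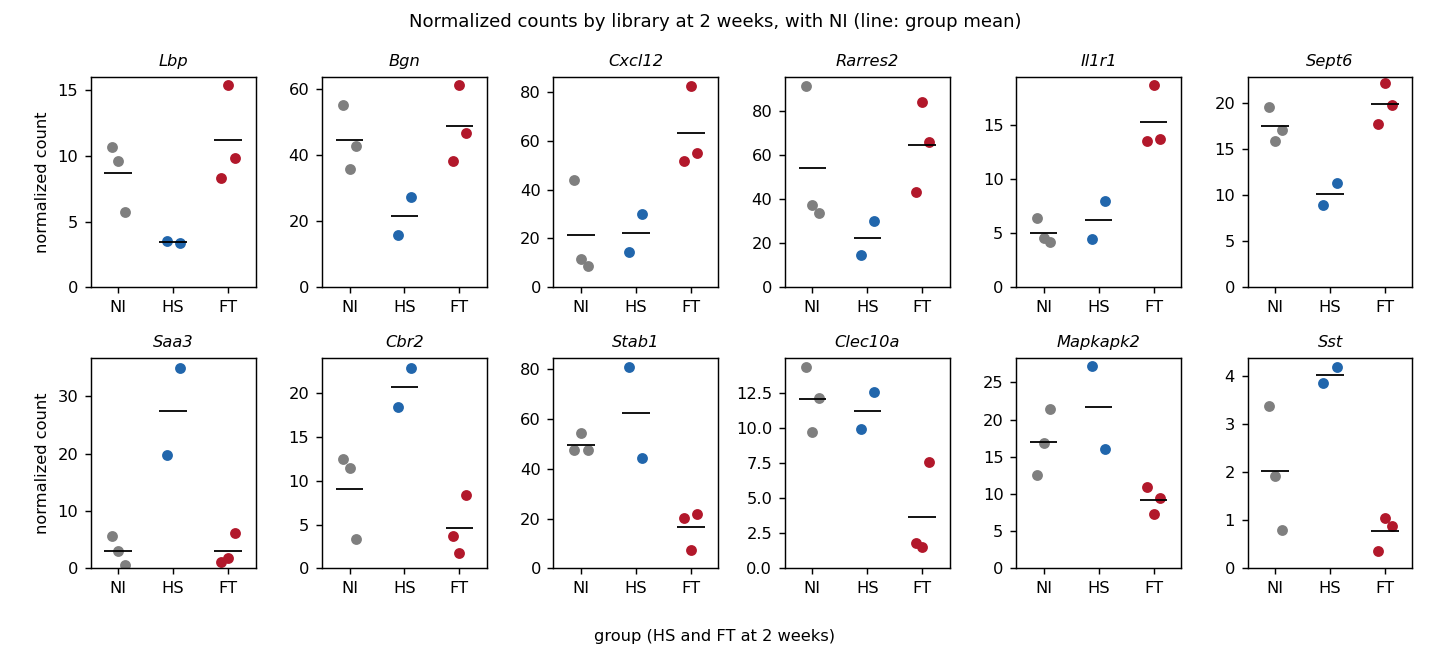
Normalized counts (y axis, from 0) of 12 genes in each NI, HS and FT library at 2 weeks, with a line at the group mean. In the 6 upper genes all FT points lie above both HS points, and in the 6 lower genes all lie below, with Lbp and Sst showing the 2 HS libraries nearly at 1 level.

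The smallest unadjusted p belonged to Ppp1r17, a protein phosphatase inhibitor, at 3.87, 8.27 and 5.26 in FT, 1.07 and 1.47 in HS and 1.34, 0.957 and 1.01 in NI (difference 1.54 ± 0.32). Sst, the neuropeptide somatostatin, was next at 0.365, 1.05 and 0.8895 in FT, 3.84 and 4.18 in HS and 3.38, 1.91 and 0.792 in NI (difference -1.52 ± 0.35, 95% interval -2.29 to -0.75), which rests on 5, 9 and 12 reads in FT and 54 and 57 in HS. Both genes are of low level, and in both the HS libraries were close to each other. Hapln3, a link protein of hyaluronan, was at 4.75, 4.31 and 2.45 in FT and 0.996 and 0.806 in HS (difference 1.31 ± 0.30). Bgn, the small proteoglycan biglycan, was at 38.3, 61.4 and 46.8 in FT, 15.9 and 27.5 in HS and 55.2, 35.9 and 42.97 in NI (difference 1.16 ± 0.30, 95% interval 0.50 to 1.81). Il1r1, the receptor for interleukin-1, was at 13.5, 18.6 and 13.6 in FT, 4.48 and 7.98 in HS and 6.36, 4.53 and 4.17 in NI (difference 1.20 ± 0.32, 95% interval 0.49 to 1.90). For Il1r1, FT stood above HS and NI alike, whereas for Bgn HS stood below FT and NI alike.

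The rest of the 10 smallest were Ror1, a Wnt5a receptor, Sept6, a septin, Nkd2, an inhibitor of Wnt signalling, Gpr182, an atypical chemokine receptor, and Lbp. Their differences apart from Lbp were 0.78, 0.91, 1.43 and 1.53, and all FT values exceeded all HS values. Without HS replicate 1 they were 0.69, 0.76, 0.72 and 0.72. Gpr182 overlaps Zbtb39 and Sept6 overlaps Gm15008. In the GENCODE annotation of GRCm38, Ppp1r17 lies at chr6:56017497-56032689, Lbp at chr2:158306493-158332852, Il1r1 at chr1:40225080-40317257, Bgn at chrX:73483602-73495933, Saa3 at chr7:46711998-46715700, Cbr2 at chr11:120729489-120732114, Stab1 at chr14:31139013-31168641 and F13a1 at chr13:36867178-37050244, each a protein-coding gene counted over its exons.

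In 34 gene lists with 499 different tested genes, 8 genes had an unadjusted p under 0.05 and were higher in FT and 3 were lower, beside 1.39% and 0.866% of all genes. No member of any list passed after adjustment. The median difference of a list is given beside that of all tested genes, which was -0.02.

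Astrocyte markers had the most positive median, 1.34, with 19 of 20 positive and an unadjusted p under 0.05 in none. Without HS replicate 1 the median was 0.12, and without HS replicate 2 it was 2.61. Sox9, a transcription factor of astroglia, was at 51.7, 71.5 and 95.03 in FT and 11.8 and 58.02 in HS (difference 1.38 ± 0.68). Gfap, the intermediate filament raised in reactive astrocytes, was at 677, 1088 and 1081 in FT, 132 and 1055 in HS and 154, 100.2 and 33.3 in NI (difference 1.31 ± 1.16, 95% interval -1.26 to 3.88). HS replicate 2 lay within the FT range of Gfap and HS replicate 1 within the NI range, and the difference was -0.19 without the latter. Mlc1, a membrane protein of perivascular endfeet, was at 95.97, 103 and 164 in FT and 24.8 and 120.1 in HS, with -0.03 without HS replicate 1.

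The microglial lists had negative medians. The median was -1.24 for homeostatic microglia (11 of 12 negative) and -1.26 for activated phagocytes (17 of 17 negative), with no member at an unadjusted p under 0.05. Without HS replicate 1 they were 0.06 and -0.17, and without replicate 2 they were -2.52 and -2.09. Csf1r, the growth factor receptor on which microglia depend, was at 204, 114 and 163 in FT, 1606 and 183 in HS and 91.7, 833 and 1021 in NI. Sall1, a transcription factor of microglia, was closer between libraries, at 95.1, 79 and 69.3 in FT and 144 and 92.4 in HS. Within the phagocyte list, 6 of 17 members did not overlap between the groups and were lower in FT (35.3%, beside 10.1% of all genes), among them Mrc1, Ms4a7 at 8.25, 3.73 and 9.27 in FT and 29.2 and 14.4 in HS, and the scavenger receptor Msr1 at 15.3, 7.57 and 13.9 and 45.97 and 17.4. The summed phagocyte level was 1336, 749 and 1588 in FT and 6613 and 1323 in HS, so HS replicate 2 was inside the FT range.

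Oligodendrocyte markers summed to 87920.3, 101325 and 56162 in FT and 73462 and 82137 in HS, with overlapping groups and a median difference of -0.08 (-0.10 without HS replicate 1). The pericyte and fibroblast sum was 6133, 11678 and 8338 in FT and 2018 and 4783 in HS, above both HS libraries in every FT library, but NI ranged from 634 to 7093. The median of its 13 tested genes was 0.56, with 9 positive and 4 negative, and it was 0.05 without HS replicate 1. Most of the sum in each FT library came from Dcn. Dcn, the matrix proteoglycan decorin, was at 4185, 8846 and 5888 in FT, 929 and 3071 in HS and 5140.0, 373 and 277 in NI (difference 1.83 ± 1.39). Monocyte and neutrophil markers summed to 88.2, 112 and 157 in FT and 141 and 104 in HS, while NI held 802 to 10974. Their median difference was -0.14, and 0.19 without HS replicate 1. Mast cell markers summed to 111, 397 and 162 in FT and 77.8 and 206 in HS, and the tryptase Tpsab1 was at 20.2, 69.9 and 36.5 in FT, 8.97 and 27.1 in HS and 0.0786, 0.0638 and 0.216 in NI. The mast cell median was 0.61, and 0.01 without HS replicate 1. The part of these cell types in the differences between the lesions was not tested.

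**Figure D4:**
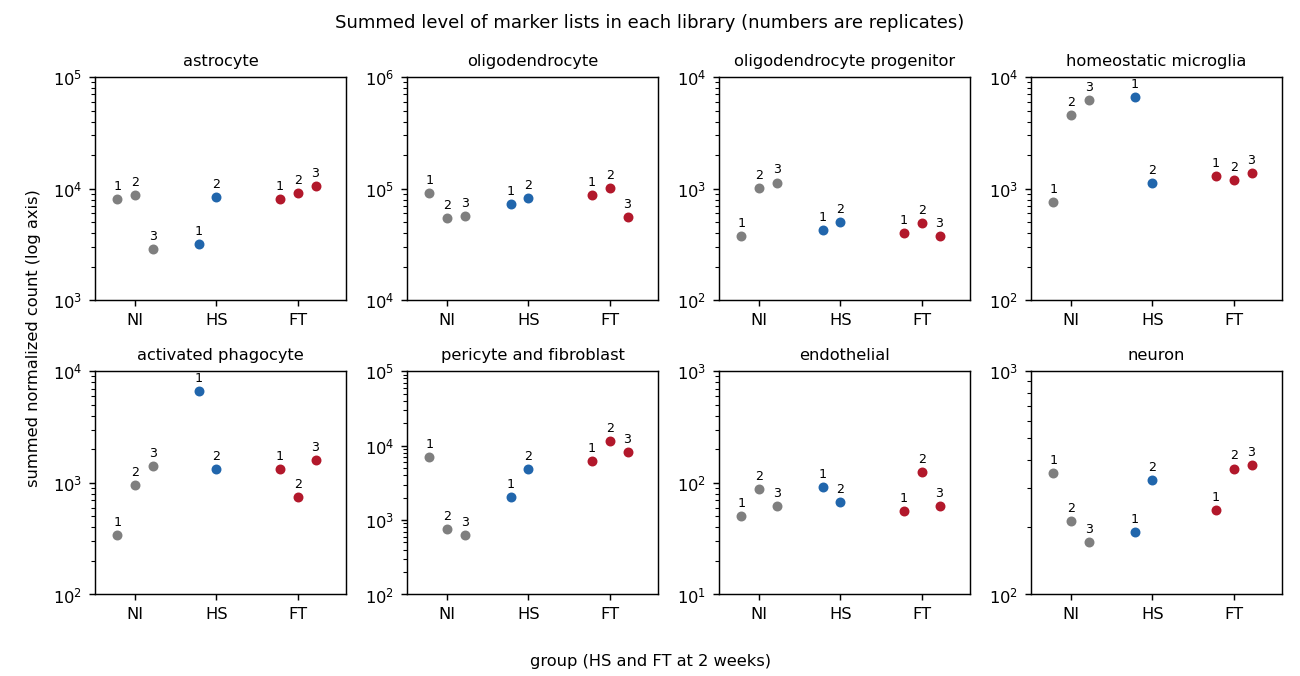
Summed normalized counts (log axis) of 8 cell type marker lists in the NI, HS and FT libraries, with replicate numbers beside the points. HS replicate 1 stands away from FT for astrocyte (3225), homeostatic microglia (6650) and activated phagocyte (6613) markers, where HS replicate 2 (8387, 1122 and 1323) is within or next to the FT points.

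The 13 genes raised in many forms of astrogliosis had a median of 0.81 (0.23 without HS replicate 1 and 0.46 without FT replicate 3). Of them 4 did not overlap, all higher in FT (30.8%, beside 11% of all genes): Steap4, a metalloreductase, at 135, 238 and 88.4 in FT and 20.1 and 56.7 in HS, Cp, the copper carrier ceruloplasmin, at 345, 542 and 409 and 94.4 and 241, S1pr3, a sphingosine-1-phosphate receptor, at 62.6, 132 and 53.7 and 20.5 and 46.2, and Osmr, the oncostatin M receptor, at 14.8, 17.8 and 12.6 and 2.78 and 12.5. Serpina3n, a protease inhibitor among the best-known reactive astrocyte genes, was at 1069, 919 and 1129.7 in FT, 779.6 and 1314 in HS and 126, 36.3 and 24.4 in NI, a difference of 0.03 ± 0.71 whose sign varied with the setting. All 5 injured libraries were above NI for Serpina3n, and the lesions overlapped.

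Complement genes had values of both signs. C1ra, C1s and Serping1, which encode the first proteases of the classical pathway and their inhibitor, were higher in every FT than in every HS library: Serping1 was at 436, 698 and 440.2 in FT and 85.2 and 196 in HS (difference 1.97 ± 1.11, 95% interval -0.47 to 4.42), and C1s at 29.7, 57.3 and 30.9 and 6.12 and 24.8. C4b, the complement component cleaved by that pathway, was at 1489, 717 and 775 in FT, 1355 and 1321 in HS and 62.5, 30.96 and 27.3 in NI (difference -0.51 ± 0.45), with the groups overlapping. C4a, at 8.91, 4.31 and 6.75 in FT and 9.46 and 11.9 in HS, is a near-identical paralogue of C4b and its reads may be split between the pair. The median of the 16 complement genes was -0.44, and -0.10 without HS replicate 1, with 11 negative and an unadjusted p under 0.05 in none. Of the 16, 5 did not overlap and were higher in FT (31.25%, beside 11% of all genes), and 1 was lower (6.25%, beside 10.1%).

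The 16 antigen presentation genes were all negative with a median of -0.67, which was 0.08 without HS replicate 1. The 3 MHC class II chains, which present peptides to helper T cells, were lower in FT also without it. H2-Aa was at 16.1, 15.96 and 47.7 in FT, 100.3 and 58.4 in HS and 123, 56.9 and 107 in NI (difference -1.68 ± 0.80, 95% interval -3.44 to 0.08, and -1.30 without HS replicate 1). H2-Eb1 was at 10.96, 13.2 and 40.8, 58.9 and 49.01 and 128, 51.4 and 91.7 in the same groups, and H2-Ab1 at 17.9, 25.2 and 59.5, 121 and 74.9 and 149, 85.2 and 134, with differences of -1.38 and -1.29 without HS replicate 1. In all 3 genes every FT library was below every HS and NI library. Of the 16 genes, 5 did not overlap between FT and HS and were lower in FT (31.25%, beside 10.1% of all genes). None of the 16 had an unadjusted p under 0.05. Cd74, the invariant chain that travels with class II, was at 205, 226 and 465 in FT and 1543 and 482 in HS.

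Inflammatory ligands had a median of -0.75 over 22 genes, and -0.01 without HS replicate 1. Cxcl12 was the member with an unadjusted p under 0.05, and its direction was opposite to the median. Cxcl2, a neutrophil attractant, was at 7.596, 21.8 and 31.7 in FT and 69.6 and 55.8 in HS (difference -1.77 ± 0.81, -1.61 without HS replicate 1), and all FT values were below both HS values. Of the 31 tested interferon-induced genes, 25 were negative with a median of -0.29, which was 0.36 without HS replicate 1. Lysosome and lipid genes had a median of -0.55 over 20 genes, which was 0.03 without HS replicate 1. Apoe, the main lipid carrier of the nervous system, was at 3555, 1031 and 1027 in FT, 11328 and 1971 in HS and 560.2, 1116 and 655 in NI. Apoc1, an apolipoprotein of the same gene cluster, was at 37.4, 31.9 and 49.8 in FT, 121 and 50.99 in HS and 5.97, 3.13 and 2.45 in NI (difference -0.99 ± 0.42, -0.38 without HS replicate 1), low in all NI libraries and highest in HS replicate 1.

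Extracellular matrix genes had a median of 0.60 (18 of 20 positive, 0.10 without HS replicate 1). Thbs2, a matricellular thrombospondin, was at 57.1, 53.5 and 48.7 in FT and 11.4 and 40.9 in HS (difference 1.25 ± 0.56, 0.37 without HS replicate 1). Fn1, fibronectin, ran against the list at 84.6, 50.7 and 111 in FT and 535 and 105 in HS, HS replicate 1 being the high library. Among proteases and their inhibitors the median was -0.04 (-0.14 without HS replicate 1), and Timp3, a matrix-bound inhibitor of metalloproteinases, was at 258, 302 and 217 in FT and 67.2 and 162 in HS (difference 1.29 ± 0.50, 95% interval 0.19 to 2.39, and 0.66 without HS replicate 1). Timp3 lies within Syn3, whose exons it overlaps. Mmp12, the macrophage elastase, was at 7.596, 2.097 and 3.48 in FT and 36.9 and 5.35 in HS, and Mmp15, a membrane-type metalloproteinase, at 15.99, 10.02 and 14.3 and 26.9 and 21.8. The 12 chondroitin sulfate proteoglycan genes, which make up inhibitory components of the scar, had a median of -0.02 with 6 positive and 6 negative, and -0.37 without HS replicate 1.

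The genes of neural stem cells and neuronal progenitors that the study followed did not separate the lesions in the test. The median of the 18 tested neurogenic genes was 0.08 (-0.24 without HS replicate 1), with none at an unadjusted p under 0.05. Tubb3, which encodes βIII-tubulin, was at 186, 179 and 164 in FT, 128 and 158 in HS and 69.6, 23.9 and 23.4 in NI (difference 0.31 ± 0.47, 95% interval -0.74 to 1.35). All FT values exceeded both HS values, and all 5 exceeded NI. Dcx, doublecortin, was at 3.07, 2.56 and 2.08 in FT, 3.91 and 3.88 in HS and 2.99, 3.83 and 3.599 in NI (difference -0.47 ± 0.29). All FT values of Dcx were below both HS values. Of the 31 tested genes that the study names, 3 did not overlap and were higher in FT (9.68%, beside 11% of all genes). A further 7 did not overlap and were lower (22.6%, beside 10.1%). The median of the 31 was 0.03, and -0.27 without HS replicate 1. Fgfr4, a fibroblast growth factor receptor, was at 11.5, 6.64 and 11.3 in FT, 6.69 and 13.5 in HS and 3.14, 1.15 and 2.45 in NI, so the injured libraries were above NI and the lesions overlapped (difference 0.00 ± 0.42, 95% interval -0.92 to 0.92).

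The other receptors of that family differed in how far the HS libraries were apart. Fgfr2 was at 253, 221 and 213 in FT and 201 and 245 in HS, with an interval of -0.45 to 0.53 that lay within 2-fold. Fgfr3, an astrocyte marker, was at 157, 126 and 193 and 22.2 and 149, where HS replicate 1 was the low library, and Fgfr1 at 97.5, 97.9 and 121 and 42.5 and 86.96. Pou3f2, also called Brn2, was at 15.99, 23.1 and 24.8 in FT and 4.27 and 18.9 in HS, and Sox2, a stem cell factor, at 13.1, 15.7 and 23.6 and 7.97 and 24.5. Notch1, a receptor that maintains progenitors, was at 34.8, 36.1 and 57.4 and 34.7 and 60.9. Gad1 and Gad2, which make the inhibitory transmitter GABA, were at 2.78, 3.96 and 3.48 and at 1.39, 1.51 and 1.33 in FT, and at 4.98 and 4.47 and at 1.92 and 2.12 in HS. In both Gad genes the groups did not overlap, with FT the lower, and the differences were -0.39 ± 0.30 and -0.33 ± 0.22, with intervals of -1.05 to 0.28 and -0.80 to 0.15. Of the 7 tested GABAergic genes, 2 had this order (28.6%, beside 10.1% of all genes) and 1 the opposite order. In that list 4 genes were positive and 3 negative, with a median of 0.06 (-0.32 without HS replicate 1 and 0.28 without replicate 2).

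The lists with the largest shares of intervals within 2-fold were of general cell functions. Of 21 oxidative phosphorylation genes 18 had an interval within 2-fold (85.7%, beside 58.9% of all genes), and of 18 genes of the amino acid response 15 did (83.3%). Their medians were 0.15 and -0.07, and 0.10 and 0.00 without HS replicate 1. Trib3, a pseudokinase induced by ATF4, was the member of the second list with an unadjusted p under 0.05, at 1.24, 3.61 and 2.15 in FT, 5.48 and 6.3 in HS and 0.629, 0.511 and 0.792 in NI (difference -1.11 ± 0.33, 95% interval -1.84 to -0.37). Cholesterol synthesis genes had a median of -0.11, cell cycle genes -0.36, cytosolic ribosomal protein genes -0.32 (23 of 24 negative) and cytoskeletal genes 0.09. Without HS replicate 1 these were -0.10, 0.09, -0.08 and 0.11, and without FT replicate 1 they were -0.29, -0.19, -0.19 and 0.04. Immediate early genes, which respond within minutes to stimulation and to tissue dissociation, had a median of -0.68 with 15 of 17 negative, and -0.47 without HS replicate 1. It was -0.35 without FT replicate 1 and 0.09 with the summed microglia and phagocyte markers as a covariate, which turned its sign.

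The 17 Hox genes, which hold the positional identity of cord cells, were all positive with a median of 0.59. Of them 2 were higher in FT with an unadjusted p under 0.05 (11.8%, beside 1.39% of all genes). Hoxc10 was at 11.98, 20.4 and 3.48 in FT and 2.42 and 3.297 in HS, where FT replicate 3 lay just above the HS values, and its exons overlap those annotated for Hoxc5. Hoxb6 was at 1.97, 3.15 and 1.93 in FT and 0.142 and 1.17 in HS, a low level, since 1 read was worth 0.0712 units in HS replicate 1. The Hox sum was 79.3, 119.9 and 112 in FT, 37.1 and 80.9 in HS and 114, 91.5 and 60.5 in NI, so HS replicate 2 was inside the FT range and replicate 1 was the lowest library, and the median was 0.20 without the latter.

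**Figure D5:**
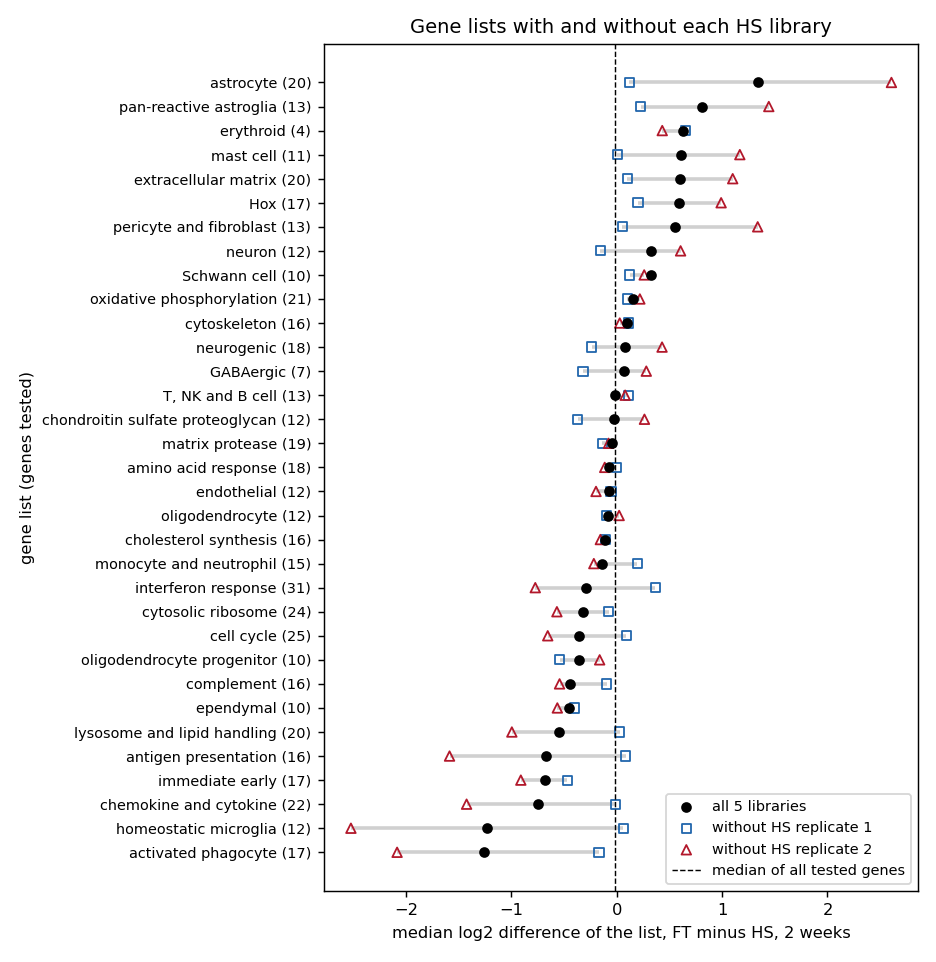
Median log2 difference (x axis, FT minus HS) of 33 gene lists (y axis, genes tested in brackets, leaving out the list of genes the study names) with all 5 libraries (black), without HS replicate 1 (squares) and without HS replicate 2 (triangles). The astrocyte median moves from 1.34 to 0.12 and the homeostatic microglia median from -1.24 to 0.06 when HS replicate 1 is left out, and the dashed line is the median of all genes, -0.02.

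Whether the effect of severity differed between 1 and 2 weeks was tested as an interaction, (FT minus HS at 2 weeks) minus (FT minus HS at 1 week). It passed for 14 genes (0.0854% of those tested), 3 with a positive and 11 with a negative value. The count ranged from 2 without HS replicate 1 of 2 weeks to 38 without HS replicate 3 of 1 week, with 7, 5 and 7 without FT replicates 1, 2 and 3 of 2 weeks and 9 without HS replicate 1 of 1 week. The direct comparison at 1 week, of 1 FT with 3 HS libraries, called 57 genes (0.348%), beside the 0 at 2 weeks. At 2 weeks these 14 genes had differences between -0.58 and 0.15. Gbp2, a guanylate-binding protein induced by interferon, was at 9.79, 20.97 and 16.98 in FT and 17.9 and 10.3 in HS at 2 weeks, and at 338 in the FT library of 1 week. Susd4, a complement regulator, was at 71.1, 75.9 and 61.7 in FT and 69.4 and 73.4 in HS at 2 weeks, and at 0.403 in the FT library of 1 week. The groups of these 2 genes overlapped at 2 weeks, and the interaction rests on 1 library of FT at 1 week, so a severity effect at that time and that single library cannot be told apart.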

How the data were processed

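Gene expression was measured by RNA sequencing of sorted eGFP-positive cells in 12 libraries, grouped by their labels. For alignment to mm10 (GRCm38) the authors used TopHat2 2.0.9. Gene counts came from HTSeq 0.5.4p3, genes reaching 10 counts in a condition were retained, and the authors state scaling to library size with edgeR 3.3.6. Each deposited signal value is such a count times a constant of its library (normalized count), and 16389 genes are listed. Whole reads were recovered from them, with 100% of values whole within 1e-06, and the 12 libraries held 8270643 to 15562378 reads. Column totals of the deposited values were unequal, from 846082 to 1133494. The constants matched library sizes adjusted by edgeR's trimmed mean of M values (TMM), computed here, at a ratio of 1.001 in each library. Whether counting used the strand is not given in the sources used here.

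Here, log2(normalized count + 1) was fitted with limma 3.58.1 (limma-trend, R 4.3.3) in a model of all 5 groups, after dropping genes whose group means were all under 0.5. FT against HS at 2 weeks and its interaction with time were tested with Benjamini-Hochberg adjustment. Intervals at 95% are 2.21 SE to each side. A fold change on this scale understates that of low genes. Recovered reads were tested as alternatives with edgeR 4.0.16 and DESeq2 1.42.0. The fits were tested on simulated data. Leaving out each library, a replicate block, other scalings, filters and pseudocounts, array weights and a microglia and phagocyte covariate were also tried.

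Genes named are those with an unadjusted p under 0.05, no overlap between groups and a group mean of 10 or more (the 12 largest differences in each direction), the 10 smallest p, up to 4 members of each list with the smallest p, genes the study names, and genes passing a test. Positions and overlaps are from GENCODE on GRCm38, where 93.5% of symbols had a single position. The comparison, gene lists and members were chosen with earlier results of these data known. An exact permutation test was not used, since 3 against 2 libraries have 10 splits and cannot reach p under 0.05.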

Additional observations from a re-analysis of the deposited data

Results flagged for a closer look

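The interaction of severity with time passed in 14 genes in limma with Benjamini-Hochberg adjustment, but it rests on 1 library of FT at 1 week, from which an effect of severity at that time cannot be told apart. Values are the log2 difference FT minus HS at 2 weeks minus that at 1 week. They were -5.81 for Gbp1, -4.62 for Gbp2 and -5.04 for Gbp4, guanylate-binding proteins, and -6.10 for Iigp1, -4.71 for Tgtp2, -3.69 for Tgtp1 and -5.60 for Gm12250. Gbp, Iigp and Tgtp genes encode GTPases induced by interferon. They were -3.91 for Ly6i, -3.67 for Klrk1, a receptor of natural killer cells, -4.66 for Mrap2, a melanocortin receptor accessory protein, and -4.88 for Gm15070. Positive values were 5.77 for Susd4, 5.32 for Jakmip1 and 3.44 for Hoga1. Adjusted p ranged from 0.00151 to 0.0458, and each gene also passed between FT and HS at 1 week.

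At 2 weeks the 14 genes lay between -0.58 and 0.15, and 8 of them had a 95% interval within 2-fold. The lone FT library of 1 week is assumed to vary like the other groups. Gbp4, Tgtp1, Gbp2 and Hoga1 overlap exons of other annotated genes, and Tgtp1 and Tgtp2 are near-identical copies whose reads may be split.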

How the results depend on the processing

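The count of DE genes between FT and HS at 2 weeks was 0 in each limma setting, in the edgeR and DESeq2 tests on all libraries and without each library in turn (lowest 0, highest 0). It was 3 only in the edgeR likelihood ratio test on the 5 compared libraries, chosen after the data were seen. The 370 genes with an unadjusted p under 0.05 became 219 with a mean of at least 5 required, which tests fewer genes. They became 965 with the 5 libraries alone, 845 with array weights and 1375 in the edgeR test on the 5 libraries, and the cause was not tested. Leaving out 1 library gave 85 to 1059.

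The replicate numbers of FT and HS share only 1 and 2, and the labels do not say what a number marks. With these as a replicate block, 953 genes had an unadjusted p under 0.05 and 0 passed. Deviations of same-numbered libraries correlated at 0.28 and 0.11, and those of HS replicate 2 and FT replicate 3, which differ in number, at 0.155. Deviations of the 2 HS libraries mirror each other, so these values are not independent, and 2 pairs do not allow a further check.

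The 14 interaction genes became 51 with a pseudocount of 4, 7 with equal totals, 110 with array weights, 46 with the microglia and phagocyte covariate, 9 and 95 with edgeR's quasi-likelihood and likelihood ratio tests and 120 with DESeq2, for which the cause was not tested. Leaving out 1 library gave 2 to 38. Of the 14, 2 (Gm15070 and Gbp1) passed in each of the 22 settings.

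Of 91 genes followed under 26 settings, 83 kept their sign. Leaving out 1 library at a time gave -0.19 to 2.81 for Gfap, -0.032 to 2.20 for Mlc1, -0.50 to 1.00 for Sox2, -0.10 to 0.18 for Fgfr2, -0.34 to 0.41 for Serpina3n, -0.46 to 0.46 for Fgfr4 and -0.54 to 0.26 for Notch1, the ends being without HS replicate 1 and without HS replicate 2. The covariate gave -0.69 for Serpina3n, -0.15 for Tubb3 and -0.28 for Fgfr4. A pseudocount of 4 gave -0.0055 and array weights -0.060 for Fgfr4. The edgeR quasi-likelihood and likelihood ratio tests and DESeq2 gave -0.011, -0.011 and -0.0020 for Serpina3n and -0.035, -0.034 and -0.025 for Fgfr4, and the edgeR test on the 5 libraries gave -0.0055 and -0.028. The cause was not tested.

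With 2 HS libraries the spread of that group rests on 1 pair, and for genes near a few reads the difference depends on the pseudocount. Of the 34 list medians, 17 were under 50% of their size without HS replicate 1, and 3 were so without HS replicate 2.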

Other observations

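The first values below lie outside the comparison of severity, whereas those of the ependymal list belong to it. After FT and after HS, Tpsab1 stood above every NI library, and the monocyte and neutrophil sum was lower in each of the 5 injured libraries of 2 weeks (88.2 to 157) than in each NI library (802 to 10974). The ependymal sum was 28.2 to 35.8 in FT, 43.5 to 56.9 in HS and 55.1 to 359 in NI, and its 10 tested members were all negative between FT and HS, with a median of -0.45. That median was -0.40 without HS replicate 1 and -0.56 without HS replicate 2. With the summed microglia and phagocyte markers as a covariate it was -0.04. No member had an unadjusted p under 0.05.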
